A study of Mus musculus with 10 samples.

Results

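The 77 peaks of Srebp2 called in wild-type (WT) cells were set against the 32280 peaks of RNA polymerase II (Pol II) called in WT cells with the same label. All rows of both deposited peak lists were taken, and they are 2 of the 6 lists of the study, which hold 53186 peaks in all. The deposited Srebp2 list is much shorter than the one the study describes, and the reason is not given in the sources used here, so every share and median below holds for the deposited peaks only. Of the 77 Srebp2 peaks, 68 overlapped a Pol II peak by at least 1 bp, 63 lay in a promoter and 59 did both. The study mapped the RNA-binding protein Qki-5, Srebp2 and Pol II by chromatin immunoprecipitation and sequencing (ChIP-seq) in WT and *Qk*-/- cells, and 1 library was made per antibody in either genotype. The cells were labelled as oligodendrocytes differentiated from mouse neural stem cells (NSCs) of a FvB/C57BL6 hybrid strain. According to the methods, the NSCs came from newborn pups that carried *Nestin-CreERT2*, in which the *Nestin* promoter drives a tamoxifen-inducible Cre, and *Qk* alleles flanked by loxP sites. The *Qk*-/- cultures were made by treating such NSCs with 4-hydroxytamoxifen, and no other origin is given for the WT cultures. Differentiation took place in medium with the thyroid hormone T3. The WT Pol II library came from passage 7 and the WT Srebp2 library from passage 8, each with the input chromatin of its passage.

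Srebp2, encoded by *Srebf2*, is a membrane-bound transcription factor of the endoplasmic reticulum. When cells are short of sterols it is carried to the Golgi apparatus and cleaved, and its released domain enters the nucleus and binds sterol regulatory elements in the promoters of genes for cholesterol synthesis and uptake. It is known to act there together with general promoter factors such as NF-Y, which binds the CCAAT box, and Sp1, which binds GC boxes. Pol II assembles at the transcription start site (TSS) and often pauses shortly downstream of it before it enters the gene body. A Pol II peak at a promoter is therefore usually found on the downstream side of the TSS, whereas sterol elements usually lie on the upstream side. In oligodendrocytes, cholesterol made in the cell is a major component of myelin.

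The DNA around the Srebp2 summit, the base with the highest signal in a peak, is shown first for peaks with a copy of the sterol element. In each line 40 bp on either side of the summit are given from the plus strand of mm10 (GRCm38), read from the RefSeq assembly, with the sterol element in capitals. The element was written as TCACNCCAC, where N is any base, and searched on both strands. Its reverse complement appears where the element lies on the minus strand. The copies of *Acss2*, *Gm43072* and *Gm44270* match it in full, and the others differ from it at 1 base. These peaks were chosen to show strong Srebp2 peaks with Pol II and, in *Gm44270*, a match without Pol II.
*Srebf2* (chr15:82147068-82147148): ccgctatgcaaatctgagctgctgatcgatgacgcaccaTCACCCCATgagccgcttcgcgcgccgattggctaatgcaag
*Insig1* (chr5:28071157-28071237): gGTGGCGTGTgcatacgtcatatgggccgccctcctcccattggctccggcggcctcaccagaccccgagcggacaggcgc
*Fdps* (chr3:89102093-89102173): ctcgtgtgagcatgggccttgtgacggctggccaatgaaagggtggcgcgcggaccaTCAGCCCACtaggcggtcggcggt
*Acss2* (chr2:155517731-155517811): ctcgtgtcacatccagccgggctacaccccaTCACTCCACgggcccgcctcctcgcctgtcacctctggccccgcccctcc
*Gm43072* (chr3:129536380-129536460): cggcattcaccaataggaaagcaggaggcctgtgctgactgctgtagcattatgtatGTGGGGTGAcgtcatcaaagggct
*Gm44270* (chr6:146751798-146751878): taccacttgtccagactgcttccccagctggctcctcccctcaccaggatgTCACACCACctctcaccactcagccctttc

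Other peaks had no sterol element in the printed stretch, even with 1 differing base, but had a CCAAT box, which is in capitals in the next lines. Outside that stretch, *Hmgcs1* and the *Mogat1* intron had a copy with 1 differing base, 58 and 57 bp from the summit. A box on the minus strand reads ATTGG. They are shown since *Hmgcs1* and *Sqle* are among the strongest Srebp2 peaks, *Atf4* had one of the highest Pol II levels, and the intronic peak in *Mogat1* was the strongest outside promoters.
*Hmgcs1* (chr13:119690037-119690117): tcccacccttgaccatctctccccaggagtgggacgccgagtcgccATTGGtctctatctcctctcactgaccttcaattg
*Sqle* (chr15:59314936-59315016): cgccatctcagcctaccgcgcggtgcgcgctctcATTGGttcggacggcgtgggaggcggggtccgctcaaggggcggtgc
*Atf4* (chr15:80255080-80255160): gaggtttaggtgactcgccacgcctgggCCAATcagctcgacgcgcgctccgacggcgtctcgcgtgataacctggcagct
Mogat1 intron (chr1:78537802-78537882): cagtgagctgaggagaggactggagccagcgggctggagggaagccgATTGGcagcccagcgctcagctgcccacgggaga

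The last stretch comes from a Srebp2 peak on chromosome Y whose nearest Pol II summit was 36337995 bp away, and it is a simple repeat of 2 bases, without a motif to mark.
Chromosome Y, nearest TSS of Gm21740 (chrY:54406629-54406709): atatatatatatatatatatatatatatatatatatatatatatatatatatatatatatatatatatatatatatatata

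In windows of 201 bp centred on the summit, 6 of 76 Srebp2 peaks held a full match of the sterol element, which is 7.89% (95% Clopper-Pearson interval 2.95 to 16.4%). The peak on the unplaced contig had no window. A full match was found in 0.738% of windows around the 16000 Pol II summits of peaks in promoters and in 0.653% of windows around TSSs with Pol II in the promoter. With 1 differing base allowed, 34 Srebp2 windows (44.7%, 33.3 to 56.6%) held a copy, against 15.5% and 17.3% of those windows. In these 34 windows the copy lay a median of 32.5 bp from the summit (range 1 to 93). The intervals cover counting error only, here and below, and there were no replicate libraries.

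CCAAT boxes and GC boxes (GGGCGG) were the most frequent of the elements searched. Each was found in 53 of 76 Srebp2 windows (69.7%, 58.1 to 79.8%). The CCAAT box was found in 15.3% of windows around Pol II summits in promoters and in 25.3% of TSS windows with Pol II. The GC box was common in all of these, with 38.3% and 54.2%. Of the 76 Srebp2 windows, 40 held both boxes, 26 held a sterol-like copy and a CCAAT box, 17 held all of these, and 8 held none of them and no E-box. The E-box CACGTG was present in 10 windows (13.2%, against 3.90% and 6.48%) and the cAMP response element TGACGTCA in 4 (5.26%, against 0.938% and 2.48%). The C/EBP-ATF element TGATGNAAT was in none of them, which allows a share of up to 4.74%. Copies on either strand were counted, and a sterol-like copy and another element may overlap. A match is a description of the letters and does not show that a factor was bound. The compared windows also differ in position. Srebp2 summits lay a median of 73 bp upstream of the nearest TSS, and Pol II summits of promoter peaks 68 bp downstream. The part of position in the shares of all these elements was not tested.

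**Figure D1:**
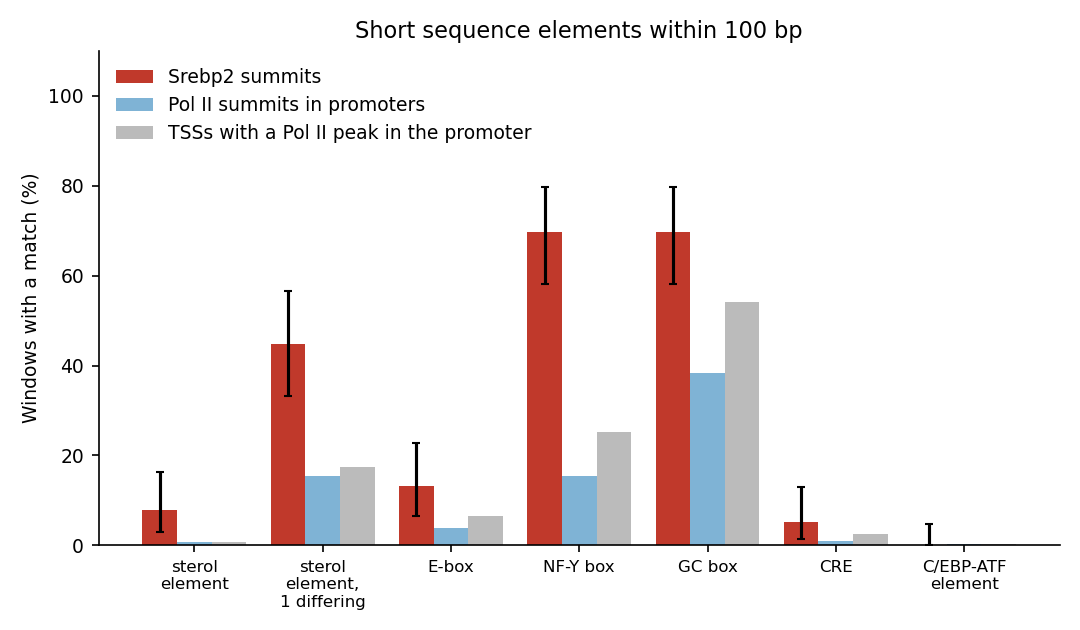
Share of windows of 201 bp (%) with a match of each element on either strand, for 76 Srebp2 summits (red, with 95% Clopper-Pearson intervals as bars), Pol II summits of peaks in promoters (blue) and TSSs with a Pol II peak in the promoter (grey). The NF-Y box and the GC box are each in 69.7% of Srebp2 windows, and a sterol element with up to 1 differing base is in 44.7%.

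The label of the cells was checked with Pol II at the promoters of marker genes. Pol II peaks were present at 4 of 13 oligodendrocyte markers (*Cnp*, *Olig1*, *Olig2* and *Nkx2-2*, 9.20-fold to 33.4-fold). They were absent at the other 9, among them *Mbp*, *Mag*, *Mog*, *Mobp*, *Cldn11*, *Myrf*, *Sox10* and *Gpr17*, several of which encode myelin proteins. All 5 NSC markers, all 3 markers of oligodendrocyte precursors and 5 of 6 astrocyte markers had a Pol II peak, and so did 2 of 7 neuron markers. Over all protein-coding genes the share of promoters with a Pol II peak was 54.1%. None of the markers of microglia (5), endothelium (3) and erythroid cells (2) had a Pol II peak. No marker of any list had a Srebp2 peak, but only 0.292% of all protein-coding promoters had one, so this tells nothing about the markers. The Pol II list thus lacked most of the markers of the labelled cell type, and the part of this in the results below was not tested. The peak names of the Pol II list begin with mNSC and those of the Srebp2 list with OL. Passage, input and any difference in the state of the cells cannot be told apart from the antibody. Read totals are not in the peak lists, and sequencing depth is therefore unknown.

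Most Srebp2 peaks lay within Pol II peaks. The 68 of 77 that overlapped Pol II are 88.3% (79.0 to 94.5%), whereas Pol II peaks covered 31.9 Mb, or 1.17% of the 2726 Mb of assembled chromosomes. Each of the 68 met a single Pol II peak, and they fell on 66 Pol II peaks, which are 0.204% of the Pol II list. A pair of Srebp2 peaks shared 1 Pol II peak in *Gramd2* and another pair did so at *Dpysl2*. Of the 68 Srebp2 peaks, 61 lay wholly inside the Pol II peak, and the Srebp2 summit was inside a Pol II peak for 67. The 7 that reached beyond it include *Spata5* (44.1% of the Srebp2 peak covered), *Acss2* (54.9%), *Brpf1* (62.4%) and *Acat2* (79.8%), and at *Acss2* the Srebp2 summit lay outside. The reverse was less frequent, since the Pol II summit lay inside the Srebp2 peak for 30. Srebp2 peaks had a median width of 251 bp (quartiles 154 to 505) and the 66 Pol II peaks one of 1482 bp (1040 to 2095). The 16000 Pol II peaks in promoters had a median width of 967 bp, and the widest of the 66 was the one of 20881 bp at *Scd2*. How many cells carried Pol II at a promoter and how much each cell carried cannot be told apart in bulk chromatin.

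Promoters, defined as the regions within 2000 bp of an annotated TSS in GENCODE M21, held 63 of the 77 Srebp2 peaks (81.8%, 71.4 to 89.7%). Pol II overlapped 59 of these 63 (93.7%, 84.5 to 98.2%) and 9 of the 14 outside promoters (64.3%, 35.1 to 87.2%). Counted by gene, 83 promoters had a Srebp2 peak and 82 of them had a Pol II peak (98.8%, 93.5 to 100%), against 28.4% of the promoters of all 55450 genes. All 64 protein-coding promoters with Srebp2 had Pol II (94.4 to 100%), against 54.1% of 21951. Pol II peaks covered 29.6% of the 77198 distinct TSS positions. The promoter without Pol II was that of the microRNA gene *Gm23935*, where Srebp2 itself was lowest (1.93-fold).

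Pol II peaks that met Srebp2 were stronger than most of the Pol II list. Fold enrichment is the signal at the summit over the local background that MACS2 estimates from the input, and it was read only within a list. The 66 Pol II peaks had a median fold enrichment of 17.9 (95% interval of the median 14.4 to 22.0, range 1.75 to 70.1), against 5.22 for all Pol II peaks and 10.4 for those in promoters. Their median percentile in the Pol II list was 85.9 (80.6 to 90.6). Of the 66, 65 lay above the 50th percentile, 51 above the 75th and 26 above the 90th. Among promoter Pol II peaks alone, the 58 with Srebp2 had a median percentile of 73.8. At the level of promoters, where the strongest peak gave the value, the contrast was small. Promoters with Srebp2 had a median Pol II fold enrichment of 18.5 (n = 82, quartiles 13.8 to 30.0), against 15.4 for all 15750 with Pol II (8.98 to 23.1). For protein-coding genes the medians were 18.0 (n = 64) and 15.8 (n = 11879).

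**Figure D2:**
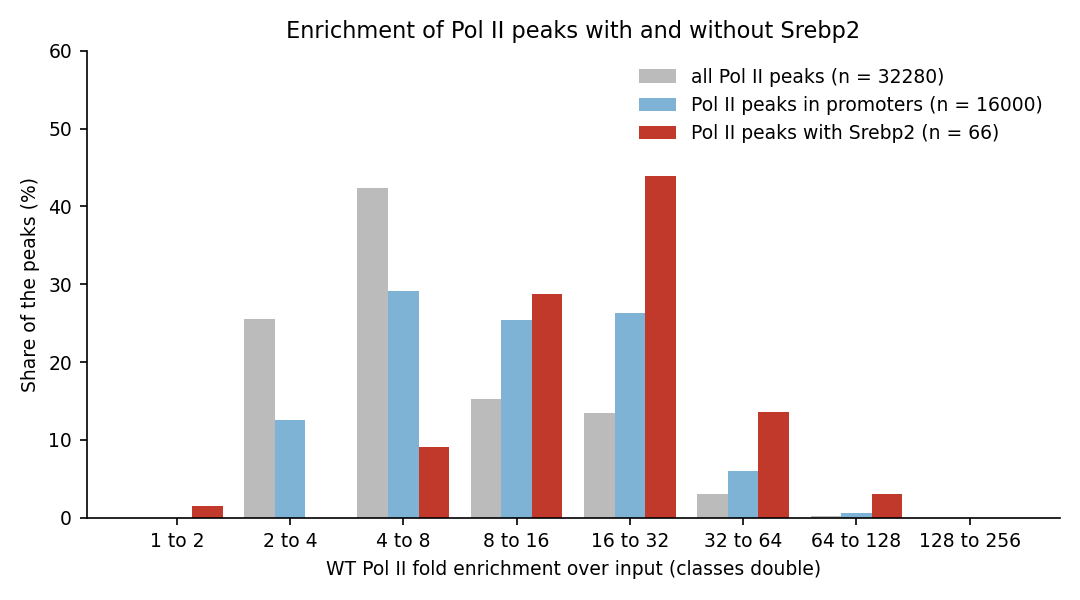
Share of Pol II peaks (%) in classes of WT Pol II fold enrichment that double in width, for all 32280 Pol II peaks (grey), the 16000 in promoters (blue) and the 66 that overlap Srebp2 (red). The class from 16 to 32 holds 43.9% of the peaks with Srebp2, 26.3% of those in promoters and 13.5% of all.

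Srebp2 sat upstream of the TSS and Pol II downstream of it at most shared promoters. The Srebp2 summit lay a median of 73 bp upstream of the nearest TSS in the 63 promoter peaks (distance -73, 95% interval -88 to -32), with 50 summits upstream and 13 downstream. With comprehensive GENCODE TSSs 52 were upstream, and with RefSeq TSSs 48. Against the nearest protein-coding TSS, 15 of the 63 summits lay within 50 bp, 30 within 100 bp, 45 within 200 bp and 57 within 400 bp. The paired Pol II summits lay a median of 77 bp downstream of that TSS (n = 59, interval 45 to 114), and 45 of 59 were downstream (76.3%). That position was close to the one of Pol II in general, since the 13586 Pol II summits within 2000 bp of a protein-coding TSS had a median of 67 bp and 72.6% lay downstream. In 58 promoter pairs with such a TSS, Srebp2 was upstream and Pol II downstream in 34, both were upstream in 12, both downstream in 10, and the order was reversed in 2.

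**Figure D3:**
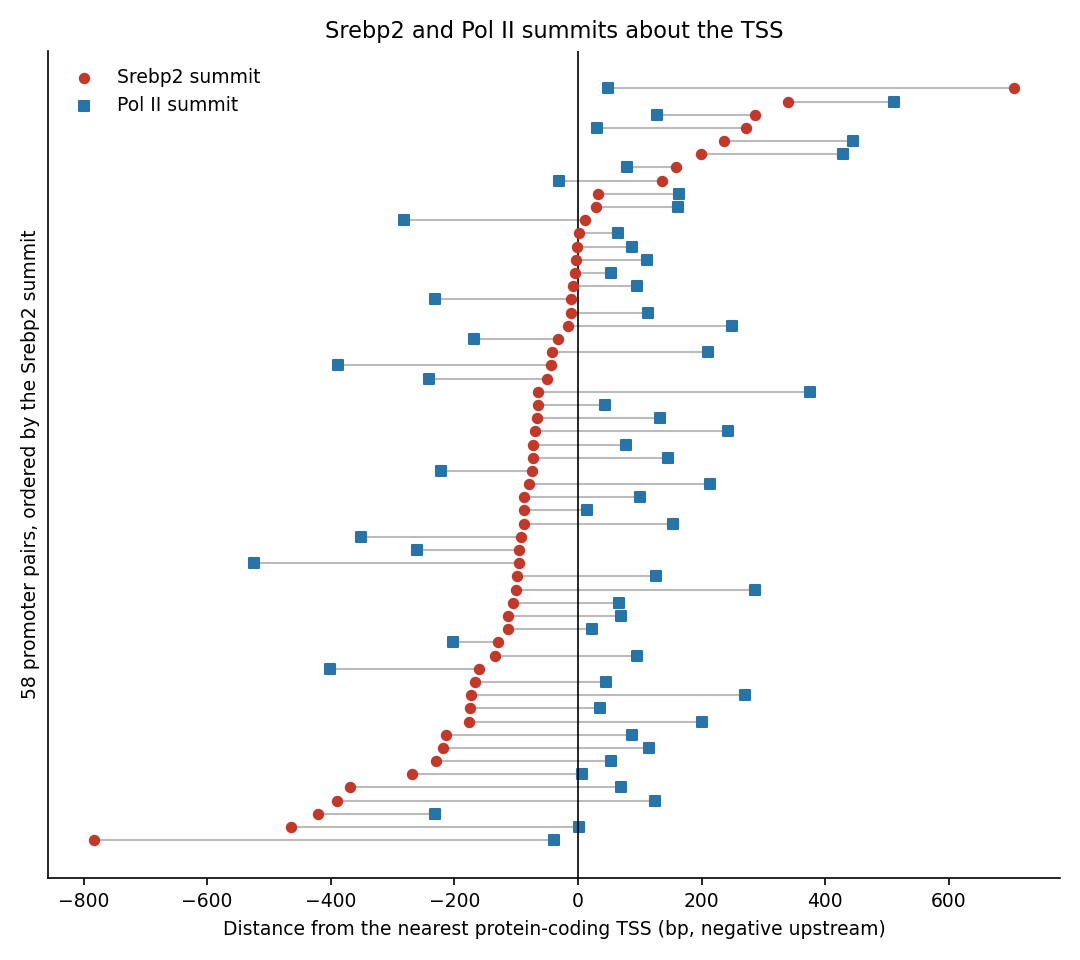
Position (bp, negative upstream) of the Srebp2 summit (red circles) and of the Pol II summit (blue squares) from the nearest protein-coding TSS, with a line for each of 58 promoter pairs ordered by the Srebp2 summit. In 34 pairs the circle is on the upstream side and the square on the downstream side, and the lines span 58 to 744 bp.

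Between the summits themselves, the median distance was 194.5 bp in either direction (n = 68, interval 165 to 230, range 33 to 744). Within 100 bp there were 8 pairs, within 200 bp 35, within 300 bp 53 and within 500 bp 65. With the strand of the gene at the nearest TSS, Pol II lay a median of 109 bp downstream of Srebp2 over 67 pairs (-72 to 171), downstream in 40 and upstream in 27. This interval includes 0. At promoters the median was 131 bp (58 to 198, downstream in 38 of 59). On the strand of the nearest protein-coding TSS it was 171 bp (104 to 211, downstream in 42 of 59). Where all TSSs of the promoter lay on 1 strand it was 192.5 bp (109 to 230, downstream in 32 of 42). The 8 pairs outside promoters with a TSS on their chromosome went the other way in 6 cases, with a median of -111 bp.

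Pol II lay farthest downstream of Srebp2 at *Csnk1g2* (744 bp), a casein kinase gene whose Srebp2 summit lay 783 bp upstream of its TSS, *Arhgap35* (466 bp), which encodes a GTPase-activating protein, *Pcmtd1* (443 bp), *Atf4* (439 bp) and *Hmgcs1* (438 bp). Pol II lay far upstream of Srebp2 at *Brpf1* (-515 bp), at *Spata5* (-430 bp), at the weaker of the *Gramd2* peaks (-393 bp) and at *Clcn6* (-344 bp), which encodes a chloride transporter. The value of *Brpf1*, a chromatin reader gene, was taken on the strand of the transcript *Gm43935*, and on the strand of *Brpf1* itself it was 515 bp downstream. The closest summits were those of the stronger *Gramd2* peak (33 bp), *Pcyt2* (58 bp), an enzyme gene of phosphatidylethanolamine synthesis, *Mvk* (64 bp), the weak peak near *Gm25352* (64 bp) and *Tmem97* (72 bp). At *Pcyt2* and *Mvk*, both summits stood within 65 bp of the TSS.

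The level of Srebp2 did not order the level of Pol II. Over the 68 pairs, Spearman's rank correlation of the fold enrichments was -0.018, and over the 59 promoter pairs it was -0.114. The points share the libraries, and a sparse list of called peaks leaves out weak binding, so these are descriptions only. When the promoter pairs were ordered by Srebp2 fold enrichment, the strongest 19 (14.5 to 57.6) had a median Pol II fold enrichment of 16.7, the middle 21 one of 19.0 and the weakest 19 (4.49 to 9.45) one of 22.0. The ranges overlapped, from 6.23 to 70.1 in the strongest and from 5.88 to 42.8 in the weakest. Within a list, fold enrichment went with width, with a rank correlation of 0.768 for Srebp2 (n = 77) and 0.537 for the Pol II peaks with Srebp2 (n = 66). Stronger Srebp2 peaks tended to lie farther from the Pol II summit (rank correlation 0.314, n = 68).

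Srebp2 was far ahead of Pol II in rank at 5 pairs. The largest difference of percentiles over the pairs was that of the *Mogat1* intron (24.0-fold for Srebp2, 5.34-fold for Pol II). The others were *Srebf2* (41.1-fold and 8.58-fold), *Fdps* (20.1-fold and 6.23-fold), *Sqle* (37.2-fold and 11.0-fold) and *Pmvk* (19.7-fold and 8.53-fold). The last 4 encode a regulator and enzymes of the mevalonate and sterol pathway, and their Pol II peaks were at percentiles 60.3 to 74.9 of the Pol II list, whereas the one in *Mogat1* was at 52.2. At the other end, Pol II was ahead at *Acsl3* (6.73-fold for Srebp2, 42.8-fold for Pol II), which encodes an enzyme that activates fatty acids, *Pip4p1* (6.73-fold and 31.8-fold), *Arhgap35* (5.96-fold and 30.0-fold), *Tecr* (5.57-fold and 26.3-fold), an enzyme gene of fatty acid elongation, and *Mtmr12* (6.34-fold and 26.7-fold). These Pol II peaks were at percentiles 93.9 to 98.8.

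**Figure D4:**
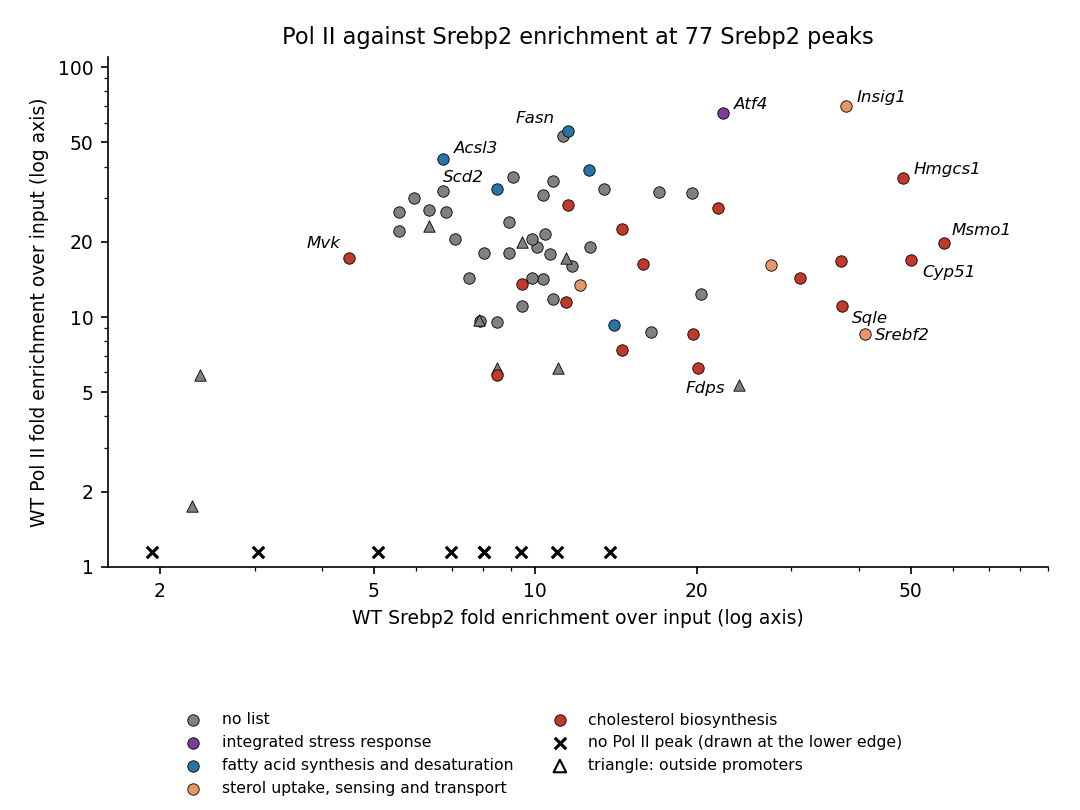
WT Pol II fold enrichment (vertical, log axis) against WT Srebp2 fold enrichment (horizontal, log axis) for 77 Srebp2 peaks, coloured by gene list, with triangles for pairs outside promoters and crosses at the lower edge for the 9 peaks without Pol II. The cloud has no slope (rank correlation -0.018 over 68 pairs), and *Insig1*, *Atf4* and *Fasn* stand highest in Pol II among the labelled genes.

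Cholesterol biosynthesis was the list with the most shared promoters. Srebp2 peaks were found at 17 of its 22 genes and Pol II peaks at all 22, whereas 0.292% of all protein-coding promoters had Srebp2 and 54.1% had Pol II. The counts of the other lists are to be read against the same shares. This list and the others were drawn up with earlier results of these data known. The 3 strongest peaks were at *Msmo1*, a sterol methyl oxidase gene (57.6-fold for Srebp2, 19.8-fold for Pol II), *Cyp51*, the lanosterol demethylase gene (50.2-fold and 16.8-fold), and *Hmgcs1*, the gene of HMG-CoA synthase (48.3-fold and 35.8-fold). At *Msmo1* the Srebp2 summit was 16 bp upstream of the TSS and the Pol II summit 249 bp downstream. At *Cyp51* both were downstream of the TSS, Srebp2 by 271 bp and Pol II by 31 bp, but the nearest comprehensive TSS put Srebp2 54 bp upstream. At *Hmgcs1* Srebp2 was 369 bp upstream and Pol II 69 bp downstream.

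The enzymes that build and condense isoprenoid units came next. *Idi1*, the isopentenyl diphosphate isomerase gene, had 37.1-fold Srebp2 and 16.7-fold Pol II, with both summits on the downstream side of its TSS. *Fdft1*, the squalene synthase gene, had 31.2-fold and 14.4-fold, with both summits upstream. *Sqle*, the squalene epoxidase gene, *Fdps*, the farnesyl diphosphate synthase gene, and *Lss*, the lanosterol synthase gene (14.5-fold and 7.41-fold), had Srebp2 105 to 174 bp upstream and Pol II 35 to 69 bp downstream. Of the early enzymes of the mevalonate pathway, *Mvd* had 11.4-fold and 11.5-fold, *Acat2* 14.5-fold and 22.5-fold, and *Mvk* 4.49-fold and 17.1-fold. *Mvk* thus had the weakest Srebp2 peak of the list and a Pol II level in its middle. Its peaks also lie in the promoter of *Mmab*, which is on the other strand, and the part of either gene was not tested.

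Among the enzymes of the later steps, *Sc5d*, a sterol desaturase gene, had 15.9-fold Srebp2 and 16.4-fold Pol II. *Hsd17b7* had 11.5-fold and 28.0-fold. This Pol II summit lay 260 bp upstream of the *Hsd17b7* TSS and 92 bp downstream of the TSS of the antisense gene *3110045C21Rik*. The part of each gene in this Pol II level was not tested. *Lbr*, which encodes the lamin B receptor and sterol reductase, had 9.45-fold and 13.6-fold. Over the 17 genes Pol II had a median fold enrichment of 16.4 (5.88 to 35.8), which is percentile 54.0 of all promoters with Pol II. The 5 genes of the list without a Srebp2 peak had a median of 10.2 (9.02 to 20.7), and these include *Tm7sf2*, *Ebp*, *Nsdhl* and *Ggps1*. The ranges of the groups overlapped. Within the 17 pairs of the list, the rank correlation of the fold enrichments was 0.278, and Pol II lay downstream of Srebp2 in 12, with a median of 171 bp.

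Of the 22 genes of sterol uptake, sensing and transport, 4 had a Srebp2 peak and 19 had a Pol II peak. *Insig1*, which encodes the anchor that holds unprocessed Srebp in the endoplasmic reticulum, had 37.9-fold Srebp2 and 70.1-fold Pol II, at percentile 99.8 of the Pol II list. The Srebp2 summit lay 166 bp upstream of its TSS and Pol II 45 bp downstream, and the noncoding *Gm26608* starts nearby on the other strand, 92 bp from the Srebp2 summit. *Srebf2* itself had 41.1-fold Srebp2 but 8.58-fold Pol II, with Srebp2 73 bp upstream and Pol II 145 bp downstream. *Stard4*, which encodes a sterol carrier protein, had 12.1-fold and 13.4-fold. Over the 4 genes Pol II had a median of 14.8 (8.58 to 70.1), against 16.9 (6.58 to 71.0) for the 15 without Srebp2. *Insig2*, *Scap* and *Srebf1*, whose products act in the same sensing step or belong to the same factor family, had Pol II (13.0-fold, 21.2-fold and 15.0-fold) and no Srebp2 peak.

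Fatty acid synthesis and desaturation held strong Pol II with moderate Srebp2. Srebp2 was found at 5 of its 17 genes and Pol II at 15. *Fasn*, the fatty acid synthase gene, had 11.5-fold Srebp2 and 55.5-fold Pol II. *Acly*, which makes cytosolic acetyl-CoA, had 12.6-fold and 38.6-fold, *Acsl3* 6.73-fold and 42.8-fold, and the desaturase gene *Scd2* 8.47-fold and 32.6-fold. *Acss2*, the acetyl-CoA synthetase gene with a full sterol element, was the exception with 14.0-fold and 9.33-fold. The median Pol II fold enrichment of the 5 was 38.6 (9.33 to 55.5), against 16.3 (2.93 to 49.6) for the 10 with Pol II only. In all 5 pairs Pol II lay downstream of Srebp2, by 104 to 378 bp. Further Srebp2 peaks of this pathway lay outside promoters, in *Acaca* and near *Elovl5*.

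In the integrated stress response, *Atf4* was the single gene of 11 with a Srebp2 peak, whereas all 11 had Pol II. It encodes the transcription factor that leads this response, and it had 22.4-fold Srebp2 and 65.5-fold Pol II. The Srebp2 summit was 64 bp upstream of the TSS and Pol II 375 bp downstream. The Pol II level of *Atf4* lay within the 3.34 to 95.5 of the 10 other genes, whose median was 36.5.

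**Figure D5:**
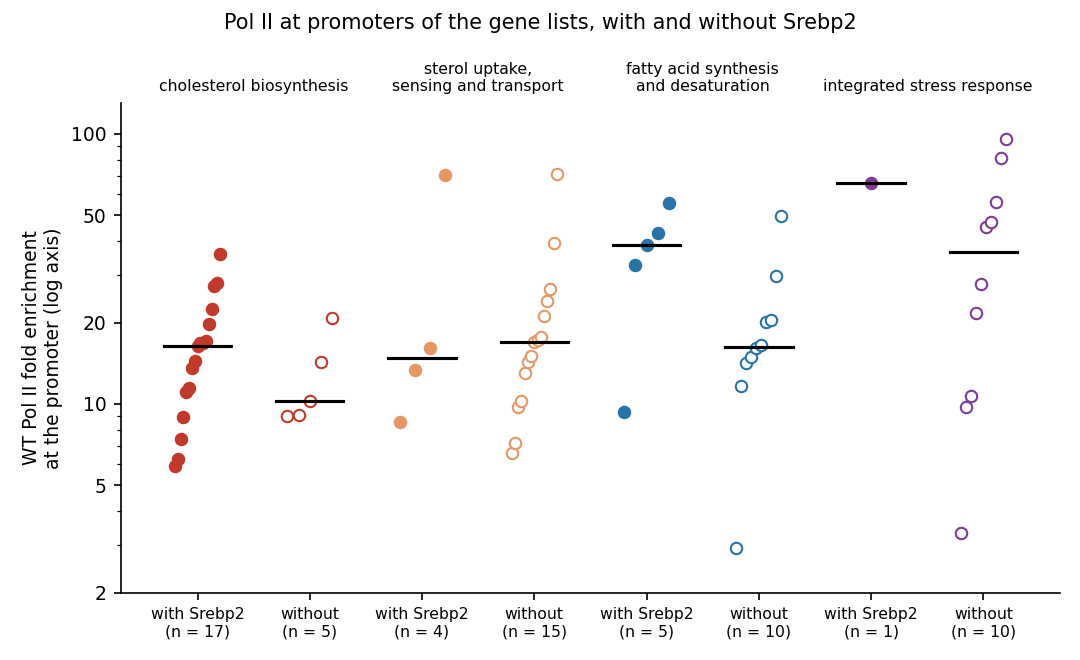
WT Pol II fold enrichment at promoters (log axis) of the genes of 4 lists, with filled points for promoters with a Srebp2 peak and open points for promoters with Pol II only, and a bar at the median. The medians with and without Srebp2 are 16.4 and 10.2 for cholesterol biosynthesis and 38.6 and 16.3 for fatty acid synthesis, and the points overlap in each list.

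The other 56 promoters with Srebp2, counted by gene, belonged to none of the lists. Of these, 55 had Pol II, with a median fold enrichment of 20.4 (3.93 to 70.1). Some of the 56 share their peaks with a listed gene, so they are not independent of the lists. *Gm26608* shares the 70.1-fold Pol II peak of *Insig1*, *Mmab* shares that of *Mvk* and *Utp14b* that of *Acsl3*. The Srebp2 peaks of the 56 were weaker, with a median of 9.85, against 19.7 for cholesterol biosynthesis. Over 41 pairs without a list, the rank correlation of the fold enrichments was 0.014. In their 32 promoter pairs, Pol II lay downstream of Srebp2 in 21, with a median of 134.5 bp.

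Several of these genes, named here after their values were seen, act in lipid or coenzyme metabolism. *Pank3*, which starts coenzyme A synthesis, had 20.4-fold Srebp2 and 12.4-fold Pol II. *Pcyt2* had 13.4-fold and 32.5-fold, and *Acsl4*, which activates long fatty acids, 8.47-fold and 9.56-fold. *Hsd17b12*, an enzyme gene of fatty acid elongation, had 7.51-fold and 14.3-fold. The sterol-binding protein gene *Tmem97* had 9.46-fold and 11.1-fold.

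Among the others, *Sub1*, which encodes a transcription coactivator, had the highest Pol II of the pairs without a list, with 11.3-fold Srebp2 and 52.9-fold Pol II. *Mfsd14a* (9.07-fold and 36.2-fold), *Pcmtd1* (10.8-fold and 34.9-fold), *Leng8* (17.0-fold and 31.5-fold) and *Csnk1g2* (19.6-fold and 31.3-fold) also had high Pol II levels. *Canx*, the gene of the chaperone calnexin, had 6.81-fold and 26.3-fold. *Pdp2*, which encodes a phosphatase of pyruvate dehydrogenase, was lowest among the promoter pairs without a list, with 16.4-fold and 8.75-fold.

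Without a Pol II peak there were 9 Srebp2 peaks. Their median Srebp2 fold enrichment was 8.01 (1.93 to 13.7), against 10.8 (2.29 to 57.6) for the 68 with Pol II, and the ranges overlapped. In 3 of them Pol II was nearby but not overlapping. The *Dnpep* peak (13.7-fold, chr1:75317649-75318045), 135 bp upstream of the TSS of this aminopeptidase gene, was 103 bp from a Pol II peak of 21.7-fold. The *Agfg2* peak (8.01-fold, chr5:137684852-137685040) was 56 bp from a Pol II peak of 3.93-fold. A weaker Srebp2 peak at *Idi1* (8.01-fold, chr13:8885141-8885253), 326 bp upstream of the TSS, was 3 bp from the Pol II peak of 16.7-fold that overlapped the stronger one.

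The other 6 lay farther from Pol II. A peak in an intron of *Stk38l* (9.40-fold, chr6:146751789-146752012), with the full sterol element printed above under *Gm44270*, lay 26758 bp from the nearest Pol II summit. The peak at *Gm23935* (1.93-fold, chr16:11144022-11144227) was 9626 bp from one. On chromosome Y there were 3 peaks (11.0-fold, 6.95-fold and 3.05-fold), between 26465922 and 77618289 bp from the nearest Pol II summit. That summit belonged to the same Pol II peak for all 3 (5.23-fold, chrY:90744604-90744829), so the distances only reflect where each Srebp2 peak lies on the chromosome. The last of the 6 was on chromosome 9 near the small nucleolar RNA gene *Gm24896* (5.08-fold, chr9:5117190-5117322), 192610 bp away. Windows of 201 bp at the 3 chromosome Y peaks were wholly repeat-masked and the one near *Gm24896* was 98.5% masked. At 67 windows with Pol II the masked share was at most 37.3% and its median was 0. Reads in such simple repeats and on chromosome Y can map to several places, and the part of this in these peaks was not tested.

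Outside promoters, 9 of 14 Srebp2 peaks overlapped Pol II, and several of them were near a TSS that the basic annotation lacks. The strongest, in an intron of *Mogat1* (24.0-fold, chr1:78537525-78538015), was 25684 bp from the nearest basic TSS, that of *BC035947*, but 214 bp downstream of a TSS of *Mogat1* in the comprehensive annotation. Its Pol II peak was 5.34-fold, with a summit 137 bp away. *Mogat1* encodes an acyltransferase of triglyceride synthesis. The *Acaca* peak (7.87-fold for Srebp2, 9.71-fold for Pol II, chr11:84179445-84179802), in the gene of acetyl-CoA carboxylase, was 6459 bp inside the gene by the basic annotation and 250 bp upstream of a comprehensive TSS. The *Gramd2* peaks (11.0-fold and 8.47-fold), which share a Pol II peak of 6.23-fold, were 316 and 742 bp downstream of a RefSeq TSS of *Gramd2*.

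The remaining ones had no such TSS within 1000 bp. The peak upstream of *Elovl5*, a fatty acid elongase gene, had 6.34-fold Srebp2 and 23.2-fold Pol II, 6629 bp before the TSS. A peak 9924 bp upstream of *Aacs*, the acetoacetyl-CoA synthetase gene, and nearest to *Gm43756*, had 11.4-fold and 17.2-fold. A peak in an untranslated exon of the nonagouti gene on chromosome 2, with *Gm45609* as the nearest TSS, had 9.46-fold and 19.9-fold. These 3 had Pol II at percentiles 85.0 to 91.7, near the median of 85.9 for all Pol II peaks with Srebp2. The weak peaks near *Gm25352* (2.29-fold and 1.75-fold) and on an unplaced contig (2.38-fold and 5.84-fold) completed the 9. Near *Elovl6* another Srebp2 peak (11.7-fold, with 16.0-fold Pol II) lay 4034 bp after its TSS and counted as a promoter peak through the transcript *Gm43072*.

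Beyond the promoter, Pol II peaks were few in genes with Srebp2, as in other genes. Gene bodies from 2000 bp after the TSS were compared for protein-coding genes of at least 5000 bp with Pol II at the promoter. The median share of the body under Pol II peaks was 0% in the 61 genes with Srebp2 and 0% in the 10390 without. Some Pol II peak lay in the body of 22 of the 61 (36.1%, 24.2 to 49.4%), against 43.8% of the others, which were longer (medians 20475 and 28987 bp). Within 1000 bp of the gene end, 19 of 61 had Pol II (31.1%, 19.9 to 44.3%), against 26.5%. The intervals include the shares of the other genes in the case of gene ends and of bodies.

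Single genes departed from this. Pol II peaks covered the whole body of *Scd2* (100%), 72.4% of *Acsl3* and 29.9% of *Hmgcs1*. They covered 17.9% of *Msmo1*, 17.6% of *Fdft1*, 11.6% of *Insig1*, 11.0% of *Fasn* and 10.6% of *Pmvk*. Of the 17 cholesterol biosynthesis genes, 8 had Pol II at the gene end, as did 3 of the 5 genes of fatty acid synthesis. *Utp14b* (80.2%) overlaps *Acsl3* and cannot be told apart from it, and *Leng8* (42.6%), named after its value was seen, was the highest outside the lists beside it.

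Against the Srebp2 and Pol II lists of *Qk*-/- cells, peaks were counted by overlap alone, without a test between genotypes. Of the 77 WT Srebp2 peaks, 18 overlapped a Srebp2 peak called in *Qk*-/- cells (23.4%, 14.5 to 34.4%), and all 18 had WT Pol II. These include *Msmo1*, *Cyp51*, *Hmgcs1*, *Srebf2*, *Insig1*, *Sqle*, *Idi1* and *Fdft1*. Their median WT Srebp2 fold enrichment was 25.7, against 9.46 for the 59 others, whereas WT Pol II was alike (18.3 and 17.9). All 28 Srebp2 peaks of *Qk*-/- cells overlapped a WT Pol II peak and 19 of them a WT Srebp2 peak.

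Counted by overlap with the Srebp2 peak, Pol II was called in *Qk*-/- cells at 57 of the 68 pairs and at none of the 9 peaks without WT Pol II. Counted by the whole WT Pol II peak instead, 57 of the 66 with Srebp2 overlapped a *Qk*-/- Pol II peak (86.4%, 75.7 to 93.6%). Of the 16000 WT Pol II peaks in promoters, 60.9% did. Above the 75th percentile of the list, it was 44 of 48 promoter peaks with Srebp2 (91.7%, 80.0 to 97.7%) and 97.2% of all 7663. The 11 pairs whose Srebp2 peak met no *Qk*-/- Pol II peak had weaker WT Pol II (median 7.41, 1.75 to 16.1) than the other 57 (19.9, 5.84 to 70.1). These 11 include *Fdps*, *Lss* and *Fdft1*, and their WT Pol II peaks may still meet a *Qk*-/- one beyond the Srebp2 peak. The WT Srebp2 levels of the 11 and the 57 were alike, with medians of 12.1 and 10.6.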

How the data were processed

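WT and *Qk*-/- cells were profiled by ChIP-seq with 1 library per antibody, and the WT Srebp2 and WT Pol II lists are used here. Trimming (Trim Galore), alignment to mm10 (Bowtie2), duplicate removal (SAMtools) and peak calling against input (MACS2, q-value of 0.05) were done by the authors. The submitters' notes give Bowtie 1.2.2, MACS2 2.1.2 and bcl2fastq. The deposited fold enrichment is a ratio of the summit pileup to the local background. The deposited −log10 p-value and −log10 q-value are those of MACS2 at the summit, and the deposited score is 10 times the −log10 q-value. Depth is unknown, so precision is given only as counting error.

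Peaks overlapping by at least 1 bp were paired. TSSs were the 77258 of GENCODE M21 basic, with the nearest to the Srebp2 summit setting the strand. Peaks carry the gene of that TSS, or a protein-coding or listed gene whose promoter they overlap. Intervals are 95% Clopper-Pearson or order-statistic intervals. No test was made, since there is 1 library per antibody. Of promoter sequences of RefSeq GRCm38.p6, 329 of 329 checked equalled the genome used. Python 3.11.15, pandas 2.3.3, numpy 2.4.6, scipy 1.17.1, pysam 0.24.0, samtools 1.23.1 and matplotlib 3.10.9 were used, and the overlap, distance and motif routines were tested on simulated data.

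Members, gene lists and comparisons were chosen with earlier results of these data known. Named are the peaks without Pol II or outside promoters, the 10 strongest Srebp2 peaks, the 5 pairs at each end of the rank difference and of the summit distance, the 5 closest pairs, and the listed genes with Srebp2. Other genes were named after their values were seen. Some genes covered by this rule are not reported here. Alternatives were other overlap rules, stricter lists (q-value under 0.01, or 5-fold and above), promoters of 1000 and 2500 bp, protein-coding, comprehensive and RefSeq TSSs, other strand rules, −log10 q in place of fold enrichment, other body starts and motif windows.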

Additional observations from a re-analysis of the deposited data

How the results depend on the processing

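Of 38 alternatives, 33 moved a result by less than its interval, or a rank correlation by less than 0.1, and none reversed a direction. The use of comprehensive or RefSeq TSSs was chosen after seeing the data. The other 5, which moved a result, are given next, and why each did so was not tested. Asking for the Pol II summit inside the Srebp2 peak gave 39.0% shared peaks in place of 88.3%. Promoters with TSSs on 1 strand gave a summit distance of 192.5 bp in place of 109 bp. Among promoter Pol II peaks the median percentile was 73.8 in place of 85.9. Bodies from 1000 bp gave a median share of 0.885% in place of 0%, against 0.493% in genes without Srebp2. With 1 differing base, 44.7% of windows held the sterol element in place of 7.89%. With 1 library per antibody no spread between cultures is known, and Srebp2 sites outside the deposited list, which is shorter than the one the study describes, are not seen. No paired analysis was possible because each antibody has 1 library and no test was made.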
